A study of Oryza sativa with 4 samples.

Results

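The phytochrome genes *PHYA*, *PHYB* and *PHYC* of rice were followed in leaves of the *hd1-3* mutant and of wild type Zhonghua11 under SD and LD conditions. The members are all probe sets that the platform's table pairs with these 3 genes by symbol or synonym, which gave 3 of the 17905 genes named on the array and 4 of its 57194 probe sets for rice transcripts. *PHYA* (LOC4333930) is read by 2 probe sets, called here by the endings of their names the _at and the _s_at probe set. *PHYB* (LOC4332623) and *PHYC* (LOC4334135) are read by 1 probe set each, both ending in _a_at. The rule goes by gene names alone.

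Each of the 4 groups was 1 Affymetrix Rice Genome Array: *hd1-3* under SD, wild type under SD, *hd1-3* under LD and wild type under LD. All plants were 35 days old, grown at 28 °C in a climate chamber, and gave leaf RNA. SD was 11.5 h of light and 12.5 h of dark with leaves taken 3 h after light on, and LD was 15 h of light and 9 h of dark with leaves taken 5 h after light on. Day length and the hour of sampling therefore changed together and cannot be told apart in any SD against LD value given here. *Hd1* encodes a zinc finger regulator of heading date. Its copy in *hd1-3* carries deletions as well as insertions that leave it functionally deficient, and the paper describes the line as photoperiod-insensitive. Signals of the mutant still differed between SD and LD here. Of the 28133 probe sets tested, 15.4% passed 2-fold for SD over LD in *hd1-3*, beside 15.2% in wild type. The sources used here do not say whether *hd1-3* and wild type also differ outside *Hd1*. Each group being a single array, no group has a measured spread of its own.

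Phytochromes are the red and far-red light receptors of plants. Each is a soluble protein that binds a linear tetrapyrrole chromophore made from heme, and light switches it between a red-absorbing form and an active, far-red-absorbing form that enters the nucleus. In rice, PHYA and PHYC take part in responses to far-red light and PHYA and PHYB in responses to red light, and the PHYC protein depends on PHYB for its stability. Phytochrome signals also reach heading date, where PHYB is needed for Hd1 to repress the florigen gene *Hd3a* under LD.

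All 3 genes lie on chromosome 3 in the RefSeq table of rice, while *Hd1* lies on chromosome 6. The locus of *PHYA* is overlapped there by 1 other gene, the non-coding RNA gene LOC4333929, and those of *PHYB* and *PHYC* by 0. The table used here gives no strand, so a part of LOC4333929 in the *PHYA* signals was not tested. The ending _s_at marks a probe set that can match several transcripts, and _a_at one that matches several transcripts of 1 gene.

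The signals are linear MAS5 intensities, scaled by the authors to a common array mean. With the top and bottom 2% of probe sets trimmed off, each array averaged 500.1. Between 24026 and 24717 probe sets per array reached 100, the lowest signal that was counted as bright enough here. All 4 phytochrome probe sets were at 100 or more on every array. *Hd1* was dim, with 60.5 in *hd1-3* and 141.5 in wild type under SD and 5.4 in *hd1-3* and 89.3 in wild type under LD (limma adjusted p = 0.429), and whether its probes lie in the altered stretch of the gene is unknown, so it is a weak check of the labels. Among leaf genes, the brightest probe set of LHCP, a light-harvesting protein, read up to 49297.3 and that of RBCS, the small subunit of Rubisco, up to 33062.2, while 2 further probe sets, for *RBCS* and *RBCS-A*, were below 100 on every array. Of 9 floral organ MADS-box genes, 6 were below 100 on every array, and *MADS16* was the only one at 100 or more on all. *MADS16* read 536.8 in *hd1-3* and 661.4 in wild type under SD, and 1047.0 in *hd1-3* and 1145.3 in wild type under LD, and was called lower under SD (limma difference -0.88, adjusted p = 0.00948). The part of other cell types in the day length values below was not tested. As a sign of RNA quality, the 3′ over 5′ signal of a GAPDH control was 4.16 in *hd1-3* and 1.64 in wild type under SD and 4.25 in *hd1-3* and 1.48 in wild type under LD. For 4 other control pairs, of actin, cyclophilin and ubiquitin, the ratios of *hd1-3* and wild type lay closer, for example 4.79 in *hd1-3* and 5.02 in wild type under SD for one actin pair. For another actin pair the ratio was 3.75 in *hd1-3* and 4.46 in wild type under SD, and 2.92 in *hd1-3* and 3.62 in wild type under LD. Both SD arrays were thus above both LD arrays for that pair, and for none of the other pairs. The part of RNA quality in the genotype and day length values below was not tested.

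*PHYC* was lower under SD than under LD in both genotypes, and it was the only one of the 3 genes whose change with day length passed the test. Its signal was 1338.9 in *hd1-3* under SD, 1657.0 in wild type under SD, 2283.1 in *hd1-3* under LD and 2557.1 in wild type under LD. Both SD arrays were below both LD arrays, with no overlap. SD over LD was 0.59-fold in *hd1-3* and 0.65-fold in wild type, with log2 folds of -0.77 and -0.63 on the log2(signal + 1) scale used throughout.

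With limma over all 4 arrays, genotype as a term and Benjamini-Hochberg adjustment, the SD minus LD difference of *PHYC* was -0.70 on the log2 scale (standard error 0.15, adjusted p = 0.0126, 2 arrays per day length). The 95% interval ran from -1.02 to -0.37, which is 0.49- to 0.77-fold. Of the 4 phytochrome probe sets 1 was called, where 3831 of the 28133 probe sets tested (13.6%) were called, 1995 lower under SD (7.09%) and 1836 higher (6.53%). An unadjusted p under 0.05 was found for 7591 (27.0%). Of the 4833 tested probe sets with a mean signal from 1000 to 2500, 14.1% had a larger difference than *PHYC* in either direction. Without the genotype term the difference was the same and the adjusted p was 0.084, and with any 1 array left out, in fits that also lack that term, the difference ran from -0.85 to -0.54 and the adjusted p from 0.123 to 0.294. In whole leaves a smaller share of cells that hold the transcript and less transcript per cell cannot be told apart.

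**Figure D1:**
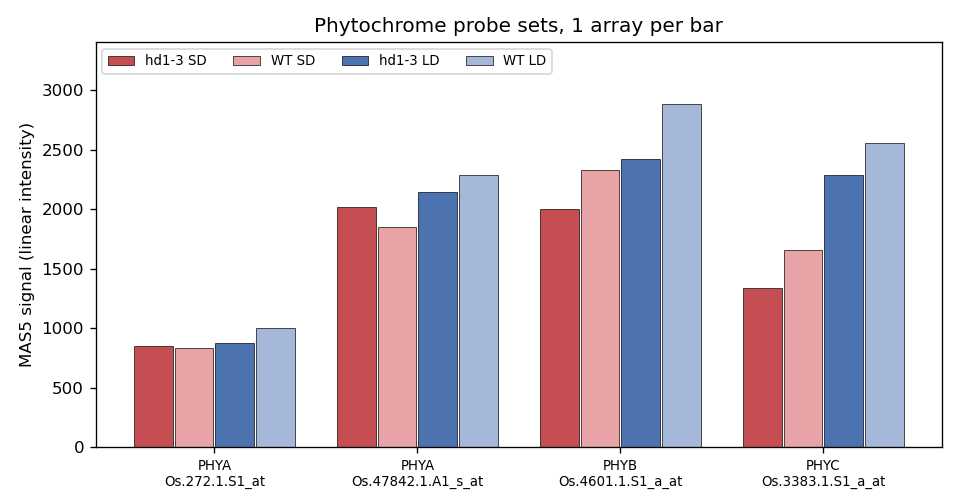
Signal (linear MAS5 intensity, vertical axis) of the 4 phytochrome probe sets, with 1 bar per array and no error bars because each group is 1 array. *PHYC* has the widest gap between its SD bars, 1338.9 and 1657.0, and its LD bars, 2283.1 and 2557.1.

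*PHYB* was also lower under SD in both genotypes, by less, and did not pass the test. Its signal was 2005.0 in *hd1-3* under SD, 2324.4 in wild type under SD, 2419.6 in *hd1-3* under LD and 2879.7 in wild type under LD. The SD arrays were again below the LD arrays, but the wild type SD array and the *hd1-3* LD array lay close together. SD over LD was 0.83-fold in *hd1-3* and 0.81-fold in wild type. The limma difference was -0.29 (standard error 0.14, adjusted p = 0.215), with a 95% interval from -0.60 to 0.02. On the linear scale the interval ran from 0.66- to 1.01-fold.

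The 2 probe sets of *PHYA* gave small differences between the day lengths. The _s_at probe set read 2019.3 in *hd1-3* under SD, 1849.7 in wild type under SD, 2144.8 in *hd1-3* under LD and 2286.1 in wild type under LD. The _at probe set read 848.2 in *hd1-3* under SD, 833.6 in wild type under SD, 875.9 in *hd1-3* under LD and 1003.0 in wild type under LD. In both, the 2 SD arrays were below the 2 LD arrays, and the gap in *hd1-3* was narrow. The limma differences were -0.20 (standard error 0.15, 95% interval -0.52 to 0.13, adjusted p = 0.436) for the _s_at probe set and -0.16 (standard error 0.17, 95% interval -0.54 to 0.23, adjusted p = 0.61) for the _at probe set.

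The SD array was below the LD array in both genotypes for 4 of 4 phytochrome probe sets, a pattern found in 38.0% of the 28133 tested. Both SD arrays were below both LD arrays also for 4 of 4, against 29.0% of those tested. Since 2 of the 4 read the same gene, they stand for 3 genes. With quantile normalization the log2 SD over LD value of *PHYA* by the _at probe set in *hd1-3* was 0.06 in place of -0.05, so its direction in the mutant depends on the scaling. None of the 4 passed 2-fold in any pair of arrays. Among the tested probe sets, 15.4% did for SD over LD in *hd1-3* and 15.2% in wild type, and 11.4% did for *hd1-3* over wild type under SD and 9.83% under LD.

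*PHYA*, *PHYB* and *PHYC* did not pass the test between *hd1-3* and wild type. In limma with day length as a term, 0 of the 4 probe sets were called, where 583 of 28133 (2.07%) were called in either direction and 3288 (11.7%) had an unadjusted p under 0.05. None of the 4 had an unadjusted p under 0.05. The lowest was 0.125, for *PHYB*.

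For *PHYB* and *PHYC* the *hd1-3* array read below the wild type array of the same day length, both times. The ratio of *hd1-3* to wild type for *PHYB* was 0.86 under SD and 0.84 under LD, and over both day lengths the difference was -0.23 on the log2 scale (95% interval -0.54 to 0.08, adjusted p = 0.581). For *PHYC* the ratio was 0.81 under SD and 0.89 under LD, and the difference was -0.24 (95% interval -0.56 to 0.09, adjusted p = 0.597). These are 2 of 4 probe sets, and 30.5% of the tested probe sets had such a pair of values. Both *hd1-3* arrays lay below both wild type arrays in 0 of 4, against 15.2% of those tested. This count cannot show a genotype difference that is smaller than the day length difference of the same probe set, so nothing is drawn from it. These intervals reach down to 0.69-fold for *PHYB* and 0.68-fold for *PHYC*, and up to 1.06- and 1.07-fold.

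For *PHYA* the 2 day lengths gave different signs, above wild type under SD and below it under LD, as in 22.3% of the tested probe sets. The _s_at probe set was 1.09-fold in *hd1-3* relative to wild type under SD and 0.94-fold under LD, and the _at probe set 1.02-fold and 0.87-fold. The limma differences over both day lengths were 0.02 (95% interval -0.31 to 0.35, adjusted p = 0.982) and -0.09 (95% interval -0.47 to 0.30, adjusted p = 0.898). At a mean signal from 1000 to 2500, the spread of 1 log2 fold was 0.30, and from 500 to 1000 it was 0.37. It was computed from how far the fold under SD and the fold under LD of a probe set lay apart, over 4833 and 4432 probe sets. The *hd1-3* over wild type log2 folds of *PHYA* and *PHYB* lay within that spread, as did -0.16 for *PHYC* under LD, while -0.31 for *PHYC* under SD was just past it. Set against the same spread, the SD over LD log2 folds of *PHYC* were past it in both genotypes. In wild type those of *PHYB* and of the _s_at probe set of *PHYA*, each -0.31, were also just past it. The remaining SD over LD folds lay within it.

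**Figure D2:**
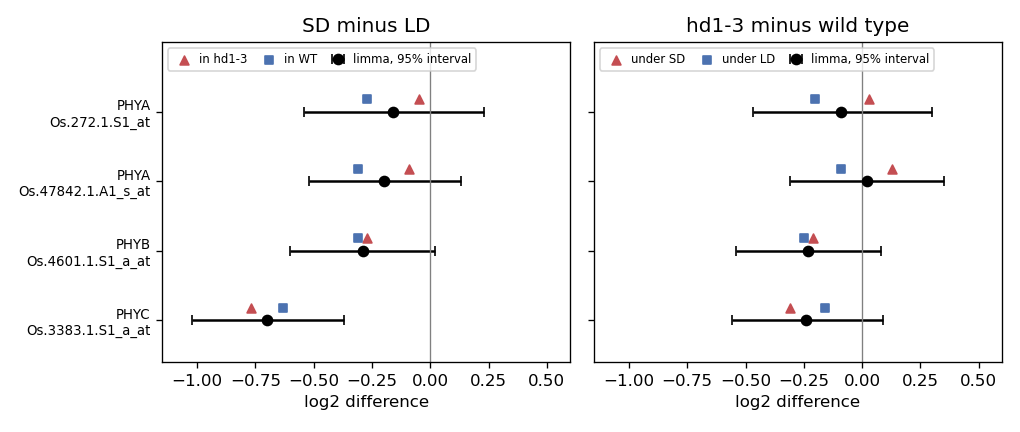
Log2 difference (horizontal axis) of each phytochrome probe set between SD and LD, left, and between *hd1-3* and wild type, right. Black points are limma estimates over 4 arrays with their 95% intervals, and coloured points are folds of single pairs of arrays; the interval lies wholly below 0 for *PHYC* between day lengths, from -1.02 to -0.37, and for no other probe set or comparison.

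Signals of probe sets with different probes do not give the order of transcript levels, because each probe binds with its own strength. For *PHYA* itself the _at probe set read 0.42 of the _s_at probe set in *hd1-3* and 0.45 in wild type under SD, and 0.41 in *hd1-3* and 0.44 in wild type under LD, on the same RNA. That ratio stayed between 0.41 and 0.45 on the 4 arrays, and its source was not tested. What can be compared is how a ratio of 2 genes within an array moves between arrays.

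*PHYB* over *PHYC* was 1.5 in *hd1-3* and 1.4 in wild type under SD, and 1.06 in *hd1-3* and 1.13 in wild type under LD. *PHYA* by its _s_at probe set over *PHYC* was 1.51 in *hd1-3* and 1.12 in wild type under SD, and 0.94 in *hd1-3* and 0.89 in wild type under LD. By its _at probe set the ratio over *PHYC* was 0.63 in *hd1-3* and 0.50 in wild type under SD, and 0.38 in *hd1-3* and 0.39 in wild type under LD. In each case both SD arrays were above both LD arrays, by 0.41, 0.50 and 0.54 on the log2 scale. The limma intervals of the SD minus LD difference of *PHYC* overlapped those of *PHYB* and of both *PHYA* probe sets. The ratio of *PHYA* to *PHYB* had no such separation for either probe set, with 1.01 in *hd1-3* and 0.80 in wild type under SD and 0.89 in *hd1-3* and 0.79 in wild type under LD for the _s_at probe set. With 2 arrays against 2, an exact two-sided permutation test cannot go below p = 0.333, so these ratios are given without a test, and no difference between the genes is drawn from them.

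**Figure D3:**
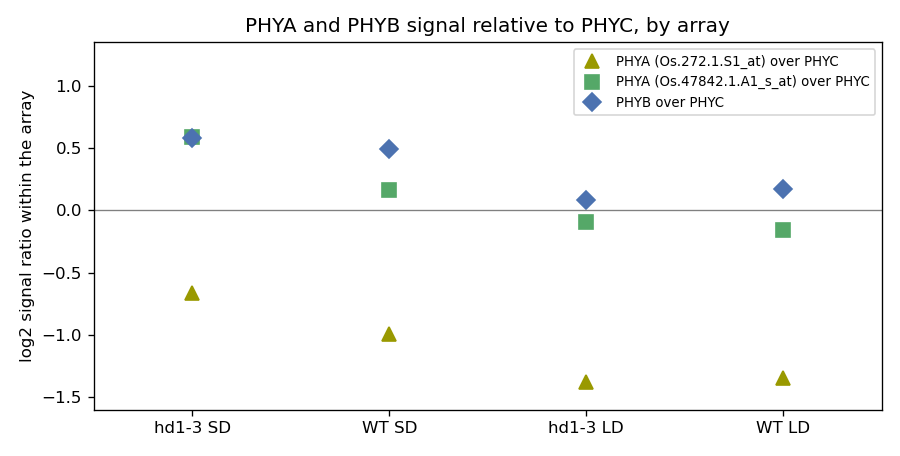
Log2 of the signal of *PHYA* (each probe set) and *PHYB* over that of *PHYC* within the same array (vertical axis), for each of the 4 arrays. All 3 ratios are higher on both SD arrays than on both LD arrays, by 0.41 to 0.54 on average.

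The SD over LD fold was also set side by side for the 2 genotypes. For *PHYA* by the _s_at probe set, the log2 fold was -0.09 in *hd1-3* and -0.31 in wild type. By the _at probe set it was -0.05 in *hd1-3* and -0.27 in wild type. The log2 fold in *hd1-3* minus that in wild type was -0.14 for *PHYC*, 0.04 for *PHYB* and 0.22 for each probe set of *PHYA*. All 4 values are below the spread of 1 fold at their signal. With 1 array per group this difference between differences leaves no residual degree of freedom and was not tested.

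**Figure D4:**
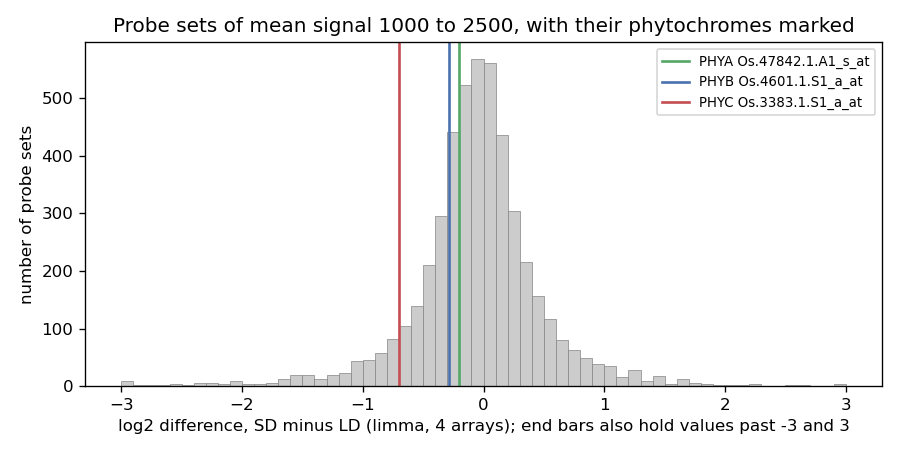
Number of tested probe sets (vertical axis) by their SD minus LD difference on the log2 scale (horizontal axis), for the 4833 probe sets with a mean signal from 1000 to 2500; lines mark *PHYC* at -0.70, *PHYB* at -0.29 and the _s_at probe set of *PHYA* at -0.20. The end bars also hold values past the ends of the axis, and 14.1% of these probe sets lie farther from 0 than *PHYC*.

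The genes whose profile over the 4 arrays lay nearest to each phytochrome were sought among 15158 probe sets that were named by 1 gene and at 100 or more on every array. Nearness was the Euclidean distance between log2 profiles, each centred on its own mean. For *PHYC* these were LOC4333678, also named *TOGR1* and *RH10* (distance 0.034), LOC4333384 (0.038) and LOC4337027 (0.044), and 27 probe sets lay within 0.1. The signal of *TOGR1* was 303.0 in *hd1-3* and 371.7 in wild type under SD, and 513.0 in *hd1-3* and 561.3 in wild type under LD. For *PHYB*, 109 probe sets lay within 0.1, the nearest being LOC4335959 (0.023), *SPL6* (LOC4334685, 0.026), which encodes an SBP-box transcription factor, and LOC4352539 (0.027). For *PHYA* there were 232, led by LOC9268727 (0.014), LOC4328287 (0.015) and LOC4344975 (0.016). The other *PHYA* probe set was at 0.11, *PHYB* at 0.281 and *PHYC* at 0.59 from the _s_at probe set. A profile of 4 values that move little has many neighbours, so this is a description of shape and no more.

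The chromophore of all phytochromes is made from heme, and *HO1*, also known as *SE5*, encodes the heme oxygenase that opens the ring. Unlike *PHYC*, *HO1* was higher under SD, with 14427.9 in *hd1-3* and 16318.6 in wild type under SD, and 9862.1 in *hd1-3* and 11585.0 in wild type under LD. Its limma difference was 0.52 (standard error 0.10, adjusted p = 0.0106). With quantile normalization it was 0.30 and did not pass (adjusted p = 0.109). The gene named *HO2* was lower under SD, with 402.8 in *hd1-3* and 234.9 in wild type under SD, and 788.8 in *hd1-3* and 634.9 in wild type under LD (difference -1.20, standard error 0.21, adjusted p = 0.00524). Neither *HO1* nor *HO2* was called between the genotypes. Whether *HO2* takes part in making the chromophore was not tested here.

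Of the 3 other photoreceptor genes measured, 2 were called higher under SD, 0 lower, and 1 was called lower in *hd1-3*, where 6.53% of all tested probe sets were called higher under SD and 2.07% were called between the genotypes. *PHOT1A*, a blue light receptor of the phototropin family, was lower in *hd1-3*, with 3036.4 in *hd1-3* and 5160.3 in wild type under SD, and 2396.8 in *hd1-3* and 4401.0 in wild type under LD. Its *hd1-3* minus wild type difference was -0.82 (standard error 0.13, adjusted p = 0.011), and it was not called between day lengths (0.29, adjusted p = 0.194). *PHOT2*, the other phototropin with a named probe set, was higher under SD (0.47, standard error 0.11, adjusted p = 0.0257), a call lost with quantile normalization (0.27, adjusted p = 0.165) and with no filter on low signals (adjusted p = 0.0641). The gene named *CRYD* was higher under SD by 1.26 (standard error 0.29, adjusted p = 0.0184), with signals of 270.9 in *hd1-3* and 431.2 in wild type under SD, and 142.3 in *hd1-3* and 141.4 in wild type under LD.

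Heading date genes that act with or after the phytochromes were mostly lower under SD among those that passed. Of 8 probe sets for 7 genes, 4 were called lower under SD, 1 higher, and 3 did not pass, where 7.09% of all tested probe sets were called lower and 6.53% higher. The differences fell into a group of 4 from -1.80 to -1.47 and another of 4 from 0.17 to 3.19, so their median of -0.65, beside -0.052 for all tested probe sets, is near none of them. *GI*, which links the circadian clock to *Hd1*, read 2535.6 in *hd1-3* and 2598.1 in wild type under SD, and 8369.7 in *hd1-3* and 8678.0 in wild type under LD (difference -1.73, standard error 0.12, adjusted p = 7.07e-05). The brighter probe set of *PRR37*, a pseudo-response regulator that represses heading under LD, fell by 1.76 (adjusted p = 0.000206) and *DTH8*, a subunit of the NF-Y complex, by 1.80 (adjusted p = 0.00501). The signals of *DTH8* under SD, 83.1 in *hd1-3* and 99.7 in wild type, were below 100, and with 100 in their place *DTH8* was at least 3.08-fold lower under SD in *hd1-3* and at least 3.33-fold lower in wild type. *MADS50*, a promoter of heading, and *Hd16*, which encodes a casein kinase, were at 0.28 (adjusted p = 0.359) and 0.17 (adjusted p = 0.539). The florigen gene *Hd3a* was the 1 called higher under SD (3.19, standard error 0.87, adjusted p = 0.0411) and the 1 called between the genotypes, higher in *hd1-3* (4.43, standard error 0.87, adjusted p = 0.0342). Its signal was 1116.3 in *hd1-3* and 295.1 in wild type under SD, and 700.4 in *hd1-3* and 4.7 in wild type under LD. The last of these is far below 100, so neither difference is a measured size. With 100 in its place, *Hd3a* under LD was at least 7-fold higher in *hd1-3* than in wild type, and in wild type at least 2.95-fold higher under SD than under LD. With 32 added in place of 1 the limma differences were 1.90 between day lengths and 3.07 between the genotypes. Both calls were lost with quantile normalization (adjusted p = 0.0605 for day length and 0.0696 for genotype) and with the filter at 500 (adjusted p = 0.0772 and 0.115). In fits without the other factor's term and without the wild type LD array, the SD minus LD difference was -0.29 (adjusted p = 0.887) and the *hd1-3* minus wild type difference 1.58 (adjusted p = 0.519). Without the *hd1-3* SD array neither passed (2.23, adjusted p = 0.716, and 4.09, adjusted p = 1). The day length call was also lost without the wild type SD array (4.14, adjusted p = 0.493) and the genotype call without the *hd1-3* LD array (4.76, adjusted p = 1). *DTH8* and *Hd3a*, and *PORA* below, were named after their values were seen.

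A list of plastid genes drawn up as light-induced held calls in both directions between the day lengths. Whether each member, *PORA* among them, is induced by light in rice leaves was not tested here. Of 8 tested probe sets for this list, 2 were called higher and 1 lower under SD, 5 did not pass, and 0 were called between the genotypes. Over all tested probe sets 13.6% were called between day lengths and 2.07% between the genotypes. *PORA*, a light-dependent enzyme of chlorophyll synthesis, was the lower one, with 3860.8 in *hd1-3* and 2920.0 in wild type under SD, and 5539.9 in *hd1-3* and 6330.3 in wild type under LD (-0.82, standard error 0.16, adjusted p = 0.00865). The 2 higher ones both read *RBCS*, at 0.64 (adjusted p = 0.0126) and 0.52 (adjusted p = 0.0156), the second call being lost with quantile normalization (0.38, adjusted p = 0.0684), while the brightest *RBCS* probe set differed by 0.07 (adjusted p = 0.691). Over the 3 LHCP probe sets the differences between SD and LD lay from 0.07 to 0.09. *PORB*, another light-dependent enzyme of the same step, was at -0.24 (adjusted p = 0.255). In limma fits with 1 array left out and no term for the other factor, *GI* and the brighter probe set of *PRR37* passed between day lengths every time (highest adjusted p = 0.0316 and 0.0331). *Hd3a* passed between day lengths only without the *hd1-3* LD array (6.66, adjusted p = 0.0128) and between the genotypes only without the wild type SD array (7.28, adjusted p = 0.00455). The other calls of these lists, *HO1*, *HO2*, *PHOT1A*, *PHOT2*, *CRYD*, the dimmer probe set of *PRR37*, *DTH8*, *PORA* and both of *RBCS*, passed in none of these fits.

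**Figure D5:**
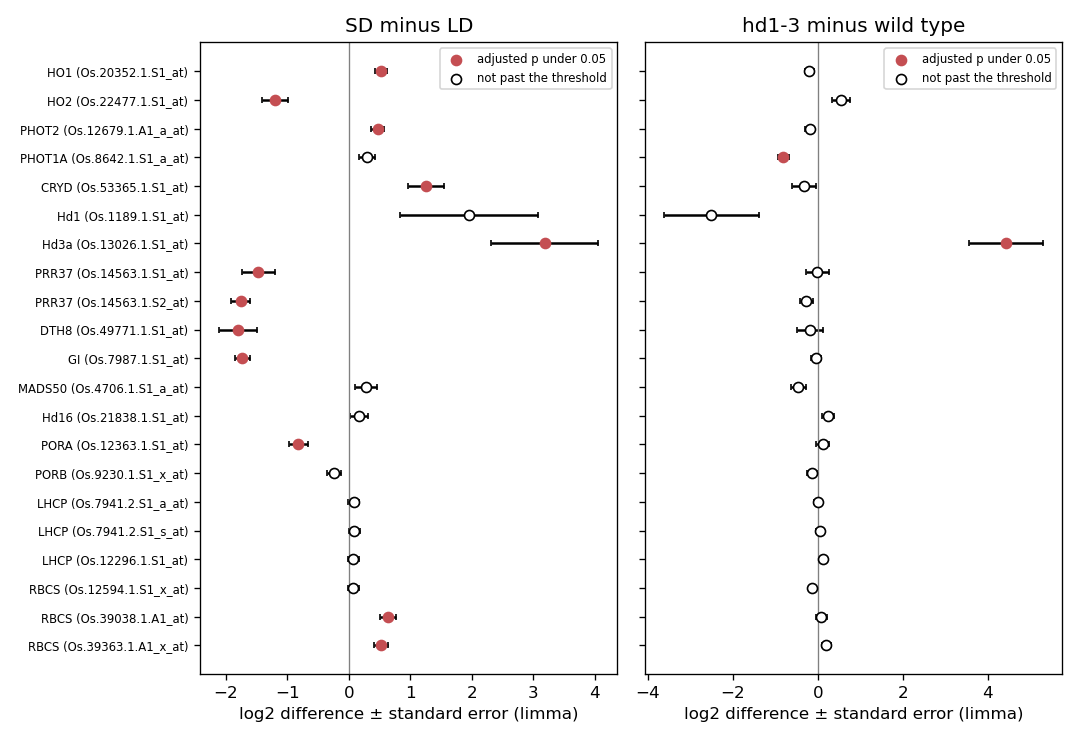
Log2 difference with its standard error (horizontal axis, limma over 4 arrays) of the probe sets of the light signalling lists between SD and LD, left, and between *hd1-3* and wild type, right; the scales of the panels differ. Filled points passed an adjusted p of 0.05, as *GI* did at -1.73 between day lengths, and *PHOT1A* at -0.82 and *Hd3a* at 4.43 between the genotypes.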

How the data were processed

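Leaf RNA was measured on 4 Affymetrix arrays. The authors ran MAS5, of unstated version, and deposited for every probe set on each array a linear intensity, with no detection calls. Trimmed means show that arrays were scaled to a common mean; no further normalization was applied. From the 57381 deposited probe sets 187 controls were removed. Genes were named by a platform table (22436 probe sets with 1 gene, 95 with several, 34663 with none) and RefSeq assembly ASM3414082v1 for symbols, synonyms and chromosomes.

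Limma 3.58.1 in R 4.3.3 (lmFit, eBayes with trend) took log2(signal + 1) of the 28133 probe sets that reached 100 somewhere among the 4 arrays, with a term for each factor, and p-values were adjusted over all of these by Benjamini-Hochberg (threshold 0.05). Each probe set has 1 residual degree of freedom, to which limma adds 8.29 from all probe sets. That 1 residual degree of freedom is the difference between the *hd1-3* over wild type folds under SD and under LD. The standard errors and intervals therefore do not measure the spread between replicate plants of a group. Nothing says that the arrays of a genotype or of a day length are independent growth batches, and the small number of arrays limits the precision. The same fit was run on simulated arrays drawn independently of each other, which does not test whether the p-values hold for these 4 arrays. Tables were made in Python 3.11.15 with pandas 2.3.3.

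The members and lists were chosen with earlier results of these data known. Lists for phytochrome-interacting factors, COP1 and SPA, HY5 and FHY3/FAR1 had no named probe set here, and neither did endosperm and pollen markers; several names of light-induced and photoreceptor genes were added from the RefSeq table. The gene named OsbZIP1 there was left out as a TGA factor, and MADS18 because it shares the synonym MADS2. Named genes are all phytochrome probe sets, *Hd1*, the 3 nearest profiles of each and the 4 brightest genes of each list. The alternatives changed the added constant (32), the scaling (quantile, or by the median of bright probe sets), the filter (none, or 500), the floor (100, for single folds) and the other factor's term (none), and dropped each array in turn.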

Additional observations from a re-analysis of the deposited data

Results flagged for a closer look

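For both probe sets of *PHYA*, the *hd1-3* array was above the wild type array under SD and below it under LD. The *hd1-3* over wild type log2 fold under SD minus that under LD was 0.22 for the _at probe set and 0.22 for the _s_at probe set, below the spread of 1 fold at their signals (0.37 and 0.30). This difference between day lengths was not tested, because 1 array per group leaves nothing to test it with. The same pattern of signs was found in 22.3% of the tested probe sets.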

How the results depend on the processing

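The signs of the limma differences of the phytochromes were the same under 32 added, quantile normalization, bright-probe scaling, both other filters and no term for the other factor. Between SD and LD, *PHYC* passed under the first 5 of these (adjusted p from 0.00668) and not without the genotype term (-0.70, adjusted p = 0.084). Leaving out 1 array needs a fit without the other term, so a day length or genotype imbalance enters it: the SD minus LD difference then ran from -0.85 to -0.54 for *PHYC*, -0.42 to -0.16 for *PHYB*, and -0.25 to -0.06 (_at probe set) and -0.26 to -0.13 (_s_at probe set) for *PHYA*. The *hd1-3* minus wild type difference ran from -0.62 to 0.15 for *PHYC*, -0.39 to -0.08 for *PHYB*, and -0.22 to 0.05 and -0.14 to 0.17 for the same 2 *PHYA* probe sets, so its direction for *PHYC* and *PHYA* depends on the array left out. No call was made in those genotype fits for these genes.

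The SD against LD count of calls, 3831, was 1298 without the genotype term and 196 to 597 with an array left out. The *hd1-3* against wild type count, 583, was 327 with the filter at 500, 53 without the day length term and 48 to 84 with an array left out. In the light signalling lists, 12 of 21 tested probe sets were called between day lengths (13.6% of all tested were), 4 without the term and 2 to 3 with an array left out; 2 of the 21 were called between genotypes (2.07% of all tested were), 1 with quantile normalization, 1 with the filter at 500, 0 without the term and 0 to 1 with an array left out. With an array left out, *Hd3a* between day lengths ran from -0.29 to 6.66. No paired analysis was possible because each group holds 1 array; day length and genotype as terms take its place. The cause of these changes was not tested.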
